A study of Homo sapiens with 6 samples.

Results

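The genes described here encode the enzymes that take acetyl groups off lysines (classical histone deacetylases, HDACs, and sirtuins), those that take methyl groups off lysines (KDM demethylases) and methyltransferases of the KMT2, SETD and EHMT names. They were chosen by symbol alone. Every gene was taken whose symbol is HDAC or SIRT followed by a number or begins with KDM and a number, SETD, KMT2 or EHMT. No expression value entered that rule, but earlier results of these data were known when it was set. Of the 26255 genes with a value, 59 matched. Of these, 56 were enzyme genes (11 HDACs, 7 sirtuins, 19 demethylases and 19 methyltransferases) and 3 were noncoding transcripts named after a neighbouring enzyme (EHMT1-IT1, KDM4A-AS1 and KMT2E-AS1). RNA was sequenced from 22RV1 cells, a human castration-resistant prostate cancer line, kept in medium with 10% serum and treated for 24 h with either the solvent DMSO (3 samples, DMSO 1 to 3) or 10 nM bruceantin (BCT), a plant quassinoid (3 samples, BCT 1 to 3). All values come from this single line. The labels do not say that the replicates were separate cultures, so p-values measure only the spread between these samples, which may be technical.

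Histone acetylation and methylation are set by opposing enzymes. Class I HDACs work in the nucleus as the catalytic subunits of corepressor complexes such as SIN3, NuRD, CoREST and NCoR/SMRT, class IIa HDACs shuttle between nucleus and cytoplasm, and sirtuins use NAD+ in the nucleus, cytoplasm or mitochondria. KDM1 demethylases use FAD, whereas the others carry a JmjC domain that uses oxygen, iron and 2-oxoglutarate. KMT2 and SETD1 proteins methylate lysine 4 of histone H3 (H3K4) at promoters and enhancers, SETD2 methylates H3K36 in transcribed genes, and EHMT and SETDB proteins methylate H3K9 in silent chromatin.

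In BCT-treated cells 12 enzyme genes rose, 3 fell and 38 of the 53 that could be tested were not called. The genes that rose were 5 demethylases (KDM5B, KDM7A, KDM5D, KDM3B and KDM6A), 3 sirtuins (SIRT1, SIRT4 and SIRT6), 3 H3K4 methyltransferases (KMT2A, KMT2C and KMT2D) and 1 HDAC (HDAC4). The genes that fell were HDAC11, HDAC1 and KDM1B. A gene was called when its log2 fold change exceeded 0.85 in size and its Benjamini-Hochberg adjusted p in limma was below 0.05, among genes whose mean over the 6 samples reached 1 FPKM (fragments scaled to transcript length and to library reads). By the same rule 4027 of 12729 genes were called (31.6%), 1764 of them higher (13.9%) and 2263 lower (17.8%), against 22.6% of the enzyme genes called higher and 5.66% called lower. The share of enzyme genes called in either direction was 28.3%, close to that of all genes. The median log2 fold change was 0.30 over the enzyme genes and −0.04 over all genes tested.

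Most enzyme genes were displaced by less than the fold threshold. By the adjusted p alone, 28 enzyme genes were higher, 19 were lower and 6 missed, where 82.1% of all genes passed. The 3 BCT samples lay wholly above the 3 DMSO samples in 29 enzyme genes and wholly below in 19, and overlapped in 5 (HDAC5, HDAC10, KDM8, SETD1B and SETD7). Over all genes 85.3% did not overlap, so a lack of overlap is not particular to these enzymes.

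The split between higher and lower calls moved with how the samples were scaled. The summed FPKM was 1169649 to 1572321 in DMSO samples and 757534 to 799838 in BCT samples, and a single small RNA, MIR6087, took 43.5% to 55.3% of it in DMSO and 31.7% to 32.5% in BCT. Scaling every sample to the same sum shifted the median change over all genes from −0.04 to 0.72, and 29 enzyme genes were then called higher and 0 lower (5614 and 668 of all genes). With MIR6087 left out of the sums, 22 enzyme genes were called higher and 1 lower (3370 and 1208 of all genes). As deposited, 32 of the 53 tested enzyme genes had a positive log2 fold change and 21 a negative one. These numbers were 50 and 3 with equal sums, and 43 and 10 with equal sums without MIR6087. The 3 that stayed negative with equal sums were HDAC1, HDAC11 and KDM1B. The gap between the enzyme median and the median of all genes was 0.34 as deposited, 0.35 with equal sums and 0.34 with equal sums without MIR6087. Such scaling moves all genes of a sample by almost the same log2 amount, so this gap could hardly change. It was 0.26 after quantile normalization and 0.29 to 0.39 when 1 sample was left out. Ratios between enzymes within a sample do not depend on the scaling, and are given below for that reason.

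**Figure D1:**
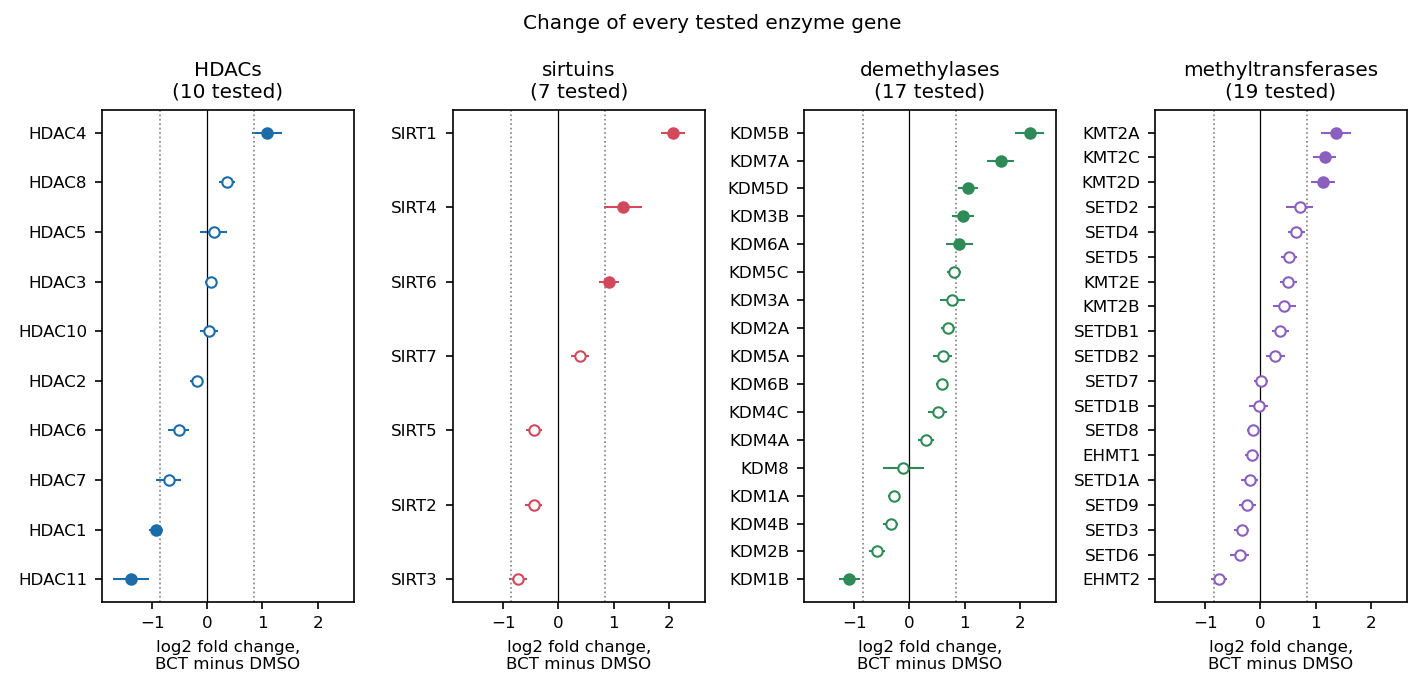
Log2 fold change (BCT minus DMSO) of the 53 tested enzyme genes, 1 panel per class and genes ordered by size, with bars for the 95% confidence interval from limma. Filled points were called, open points were not and dotted lines mark the fold threshold of 0.85. Sirtuins and demethylases reach past 2 at the top, and neither the sirtuins nor the methyltransferases have a call on the lower side.

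The median log2 fold change was −0.08 over the 10 tested HDACs (1 called higher and 2 lower), 0.40 over the 7 sirtuins (3 and 0), 0.60 over the 17 tested demethylases (5 and 1) and 0.27 over the 19 methyltransferases (3 and 0). These medians describe small classes and were not tested against each other. The sirtuin median was the value of SIRT7, and was −0.02 when the minimum mean was set to 5 FPKM, which removes SIRT4. The HDAC median, close to 0 as deposited, was 0.68 with equal sums and 0.30 with equal sums without MIR6087. It was below the medians of all genes (0.72 and 0.34) in both, as it was as deposited (−0.08 against −0.04), a gap that scaling could hardly change.

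Promoter sequences are given for 4 genes: SIRT1 and KDM5B, which rose the most, HDAC11, which fell the most, and KMT2E, whose start lies back to back with that of KMT2E-AS1. Each is the 250 bases before the start of transcription, 5′ to 3′ on the gene's own strand, from RefSeq on GRCh38.p14, a later build than the hg19 of the expression values. Capitals in SIRT1 mark the E-box CACGTG, and capitals in KMT2E mark the 63 bases that separate the start of KMT2E from that of KMT2E-AS1. KDM5B and HDAC11 held none of the motifs searched and have no capitals.
SIRT1, chr10:67884406-67884655, plus strand: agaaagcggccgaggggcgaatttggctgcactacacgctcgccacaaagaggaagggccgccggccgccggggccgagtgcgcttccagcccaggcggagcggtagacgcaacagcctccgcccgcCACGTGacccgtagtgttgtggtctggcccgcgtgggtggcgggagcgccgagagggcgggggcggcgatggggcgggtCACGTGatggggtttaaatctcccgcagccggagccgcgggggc
KDM5B, chr1:202808422-202808671, minus strand: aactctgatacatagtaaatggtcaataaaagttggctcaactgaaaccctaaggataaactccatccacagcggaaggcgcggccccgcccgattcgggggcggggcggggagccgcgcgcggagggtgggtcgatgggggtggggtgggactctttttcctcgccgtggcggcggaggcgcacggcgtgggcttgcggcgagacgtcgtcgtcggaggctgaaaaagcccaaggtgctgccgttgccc
HDAC11, chr3:13480056-13480305, plus strand: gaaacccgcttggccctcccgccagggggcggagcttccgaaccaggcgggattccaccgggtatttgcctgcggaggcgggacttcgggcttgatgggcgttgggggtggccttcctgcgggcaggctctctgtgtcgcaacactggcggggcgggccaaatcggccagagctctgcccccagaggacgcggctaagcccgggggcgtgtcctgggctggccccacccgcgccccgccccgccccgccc
KMT2E, chr7:105013955-105014204, plus strand: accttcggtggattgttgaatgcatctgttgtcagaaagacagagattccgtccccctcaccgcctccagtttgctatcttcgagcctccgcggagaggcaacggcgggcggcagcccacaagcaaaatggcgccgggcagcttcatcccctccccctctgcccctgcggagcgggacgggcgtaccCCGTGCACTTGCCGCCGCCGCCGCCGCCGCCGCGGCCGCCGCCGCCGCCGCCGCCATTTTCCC

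RefSeq promoter windows, which run from 250 bases before to 50 bases after a start, were matched for 52 of the 56 enzyme genes (76 windows, since some genes have several starts). CACGTG, the E-box of the MYC and USF family, lay in 10 of the 76 windows (13.2%), from 9 genes, against 7.26% of 35116 windows of all genes. Those 9 genes were SIRT1, HDAC4, KDM6A and KMT2D, which rose, and EHMT2, KDM4B, KDM4C, SETD6 and SETDB1, which were not called. In SIRT1 the 2 copies lay 123 and 44 bases before the start. TGACGTCA, the CRE of the CREB/ATF factors, lay in SIRT4 alone (1.85% of all windows), and GAANNTTC, the core of a heat shock element, lay in SIRT4, KDM6B and SETD1A (6.77% of all windows). The E2F octamers TTTCGCGC and TTTGGCGC lay in none of the 76 windows and in 1.15% of all windows. Both strands were searched, and a match describes the letters of a window and nothing about binding.

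Among the classical HDACs, the most abundant gene was among those that fell. HDAC1 (hg19 chr1:32757708-32799224), a catalytic subunit of the SIN3, NuRD and CoREST complexes, was at 219.8, 214.1 and 208.8 FPKM in DMSO 1 to 3 and at 118.3, 110.6 and 108.2 FPKM in BCT 1 to 3. The groups did not overlap, and the mean went from 214.2 ± 5.51 to 112.4 ± 5.27 FPKM (SD, n = 3 each). The log2 fold change was −0.93 ± 0.052 (SE; limma, adjusted p = 1.4e-06). It was not called with equal sums (−0.16), with equal sums without MIR6087 (−0.54) or after quantile normalization (−0.64), although its sign was negative in each. HDAC2, its closest paralog and partner in the same complexes, was at 42.2, 38.9 and 38.4 FPKM in DMSO and 34.4, 34.7 and 35.2 FPKM in BCT and was not called (−0.19). HDAC3, the catalytic subunit of NCoR/SMRT, was at 49.1, 47.9 and 48.5 FPKM in DMSO and 50.5, 52.1 and 49.3 FPKM in BCT. Its log2 fold change was 0.06, with a 95% interval of −0.04 to 0.17 (limma, adjusted p = 0.24). HDAC8, which acts outside those complexes and deacetylates cohesin, was at 11.7, 11.5 and 12.4 FPKM in DMSO and 14.3, 15.9 and 15.4 FPKM in BCT (0.35, not called).

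The ratio of HDAC1 to the other class I enzymes was lower in every BCT sample than in any DMSO sample. Its ratio to HDAC2 was 5.21, 5.50 and 5.44 in DMSO and 3.44, 3.19 and 3.08 in BCT, and its ratio to HDAC3 went from 4.42 ± 0.0968 to 2.22 ± 0.110 (SD, n = 3). The 4 class I genes summed to 314.4 ± 7.54 FPKM in DMSO and 212.9 ± 4.73 FPKM in BCT, and HDAC1 made up 68.1% ± 0.376 of that sum in DMSO and 52.8% ± 1.43 in BCT. The share of HDAC3 went from 15.4% ± 0.279 to 23.8% ± 0.595. In FPKM HDAC1 was still the highest HDAC in all 6 samples.

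**Figure D2:**
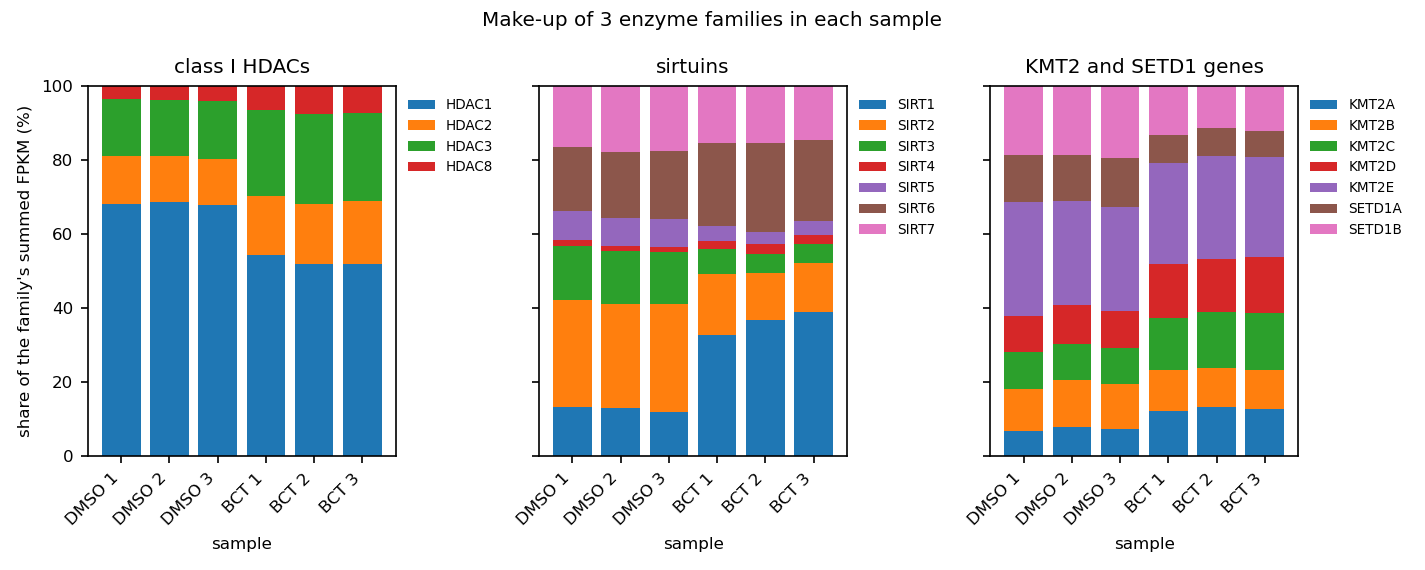
Share of each gene in the summed FPKM of its family (%), stacked for each sample, in class I HDACs, sirtuins and the KMT2 and SETD1 genes. In class I HDACs the share of HDAC1 is 67.8% to 68.5% in DMSO and 51.9% to 54.4% in BCT, and in the sirtuins the share of SIRT1 is higher in each BCT sample than in any DMSO sample.

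The other HDACs moved in different directions. HDAC11 (hg19 chr3:13521715-13547924), the only class IV enzyme and a remover of long fatty acyl groups, was at 1.97, 1.79 and 1.83 FPKM in DMSO and at 0.690, 0.608 and 0.664 FPKM in BCT. It fell by 1.38 on the log2 scale (SE 0.14; limma, adjusted p = 3.0e-05). It was not called with a pseudocount of 1 (−0.79) or with equal sums (−0.68). HDAC11 reached the minimum mean of 1 FPKM only through the DMSO samples (mean 1.86 FPKM, against 0.654 FPKM in BCT). HDAC4, a class IIa enzyme that binds MEF2 factors, was at 0.980, 1.02 and 1.12 FPKM in DMSO and at 2.21, 2.29 and 2.44 FPKM in BCT. It rose by 1.08 ± 0.12 (log2, SE; limma, adjusted p = 4.4e-05), and was not called with a pseudocount of 1 (0.70). Every BCT sample of HDAC4 lay above every DMSO sample, but its mean stayed below those of HDAC5 and HDAC7.

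HDAC7, a class IIa relative of HDAC4, was at 11.1, 11.0 and 11.97 FPKM in DMSO and 7.88, 6.03 and 6.97 FPKM in BCT, and was not called (−0.70). The ratio of HDAC4 to HDAC7 accordingly went from 0.0918 ± 0.00282 to 0.336 ± 0.0509 (SD, n = 3). HDAC5 overlapped between the groups, at 14.5, 13.8 and 15.3 FPKM in DMSO and 13.7, 18.6 and 15.4 FPKM in BCT (0.12; limma, adjusted p = 0.33). HDAC9, a further class IIa enzyme, was under the minimum level at 0.434 ± 0.0652 FPKM in DMSO and 0.194 ± 0.0151 FPKM in BCT, and was not tested. The class IIb enzyme HDAC6, a tubulin deacetylase, was not called at −0.52 (9.06 to 9.12 FPKM in DMSO and 5.76 to 7.17 FPKM in BCT). HDAC10, a polyamine deacetylase, had a log2 fold change of 0.03 with an interval of −0.13 to 0.19 (limma, adjusted p = 0.69). For some enzymes the values carry a limit. For HDAC8 and HDAC10 66.1% and 66.0% of the 100-base stretches of their reference (MANE Select) transcript also occur in a transcript of another gene. The same held for 43.1% in KDM4A, 21.1% in KMT2A, 12.6% in SETD6 and 10.0% in KDM4E, and for 2.14% to 3.66% in KMT2C, KMT2D and SETD8, so that the authors' counting could split reads of these genes.

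As deposited, the sirtuins divided by gene rather than moving together, with 4 higher and 3 lower by the adjusted p. With equal sums no sirtuin was negative, so the direction of SIRT2, SIRT3 and SIRT5 depended on the scaling. SIRT1 (hg19 chr10:69644427-69678147), a nuclear deacetylase of histones, p53 and FOXO factors, was at 10.5, 10.3 and 9.87 FPKM in DMSO and at 36.8, 46.9 and 47.2 FPKM in BCT. Every BCT sample lay well above the highest DMSO sample, and the mean went from 10.2 ± 0.332 to 43.7 ± 5.90 FPKM (SD, n = 3), a ratio of 4.27. Its log2 fold change was 2.07 ± 0.096 (SE; limma, adjusted p = 7.8e-07), and it was called under all 20 alternatives (1.98 to 2.84). SIRT6, a nuclear deacetylase of H3K9 and H3K56 that takes part in DNA repair, was at 13.8, 14.2 and 15.2 FPKM in DMSO and 25.1, 30.5 and 26.7 FPKM in BCT. It rose by 0.92 ± 0.079 (log2, SE; limma, adjusted p = 1.0e-05), just past the threshold, and without BCT 2 its value was 0.84 and it was not called. SIRT4, a mitochondrial sirtuin, was at 1.26, 1.04 and 1.22 FPKM in DMSO and 2.32, 3.25 and 2.79 FPKM in BCT, and rose by 1.17 ± 0.15 (log2, SE; limma, adjusted p = 1.0e-04; 0.79 and not called with a pseudocount of 1).

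The remaining sirtuins were not called. SIRT2, a mostly cytoplasmic deacetylase of tubulin and the most abundant sirtuin in DMSO samples, was at 22.7, 22.3 and 24.2 FPKM in DMSO and 18.4, 16.2 and 16.1 FPKM in BCT (−0.45). SIRT3, the main mitochondrial deacetylase, was at 11.6, 11.4 and 11.7 FPKM in DMSO and 7.67, 6.66 and 6.46 FPKM in BCT (−0.73). SIRT5, a mitochondrial desuccinylase, was at 6.14, 6.09 and 6.27 FPKM in DMSO and 4.64, 4.28 and 4.596 FPKM in BCT (−0.44). No sirtuin overlapped between the groups. SIRT7, a nucleolar enzyme, was at 13.0, 14.1 and 14.4 FPKM in DMSO and 17.3, 19.8 and 17.8 FPKM in BCT (0.40). The ratio of SIRT1 to SIRT2 was 0.463, 0.462 and 0.408 in DMSO and 2.004, 2.89 and 2.94 in BCT, so the order of the pair in FPKM changed. SIRT1 made up 12.7% of the summed sirtuin FPKM in DMSO and 36.1% in BCT, while the sum went from 80.4 to 120.5 FPKM.

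**Figure D3:**
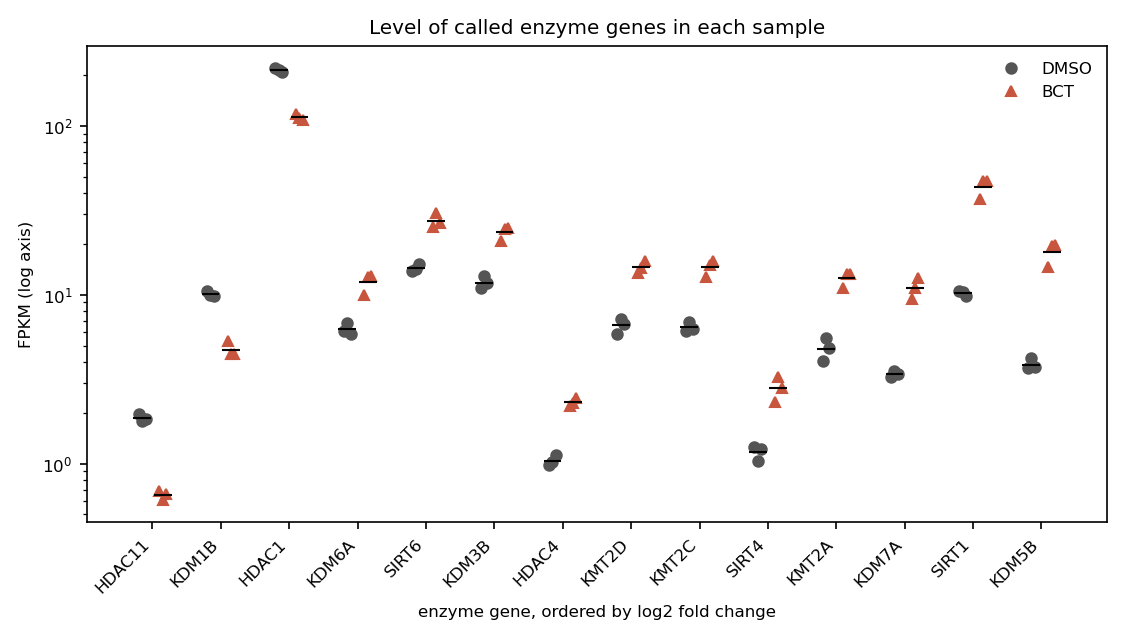
FPKM in each sample (log axis) for 14 of the 15 called enzyme genes (KDM5D is given as group means only), with circles for DMSO samples, triangles for BCT samples and a line for each group mean. No BCT point overlaps the DMSO points in any gene shown, and in each of them BCT 1 is the BCT sample nearest to DMSO.

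Of the 15 tested JmjC demethylases 5 rose (33.3%, against 13.9% of all genes) and 0 fell (against 17.8%), with a median log2 fold change of 0.70 and a range of −0.58 to 2.18. Both FAD-dependent KDM1 genes were negative as deposited (KDM1A turned positive with equal sums, also without MIR6087). The KDM5 family, which removes H3K4 methylation, was positive in each member as deposited and under each scaling, and its summed FPKM went from 42.8 ± 2.20 to 88.0 ± 6.28 (SD, n = 3). KDM5B (hg19 chr1:202696532-202777549) was at 3.66, 4.20 and 3.71 FPKM in DMSO and at 14.7, 19.5 and 19.6 FPKM in BCT. The mean went from 3.86 ± 0.296 to 17.9 ± 2.82 FPKM, and the log2 fold change was 2.18 ± 0.12 (SE; limma, adjusted p = 1.3e-06), the largest of the enzyme genes. KDM5D, the Y-linked member, went from 10.5 ± 0.512 to 22.1 ± 2.14 FPKM and rose by 1.06 ± 0.079 (log2, SE; limma, adjusted p = 4.9e-06). KDM5C, its X-linked counterpart, was at 19.2, 21.0 and 20.2 FPKM in DMSO and 34.8, 36.4 and 34.9 FPKM in BCT and missed the fold threshold at 0.81. KDM5A, at 7.96, 8.998 and 7.87 FPKM in DMSO and 11.7, 13.2 and 12.9 FPKM in BCT, had the smallest log2 fold change of the family (0.60). The ratio of KDM5B to KDM5A went from 0.466 ± 0.00577 to 1.42 ± 0.145.

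KDM7A, a demethylase of H3K9 and H3K27, was at 3.26, 3.53 and 3.40 FPKM in DMSO and 9.39, 11.0 and 12.5 FPKM in BCT, and rose by 1.65 ± 0.10 (log2, SE; limma, adjusted p = 2.1e-06). The H3K9 demethylase KDM3B was at 10.9, 12.8 and 11.7 FPKM in DMSO and 20.8, 24.4 and 24.9 FPKM in BCT, and rose by 0.98 ± 0.087 (log2, SE; limma, adjusted p = 1.3e-05). Its paralog KDM3A, which acts on the same mark, was at 11.9, 10.6 and 11.8 FPKM in DMSO and 16.9, 22.0 and 20.2 FPKM in BCT (0.78), and was called when BCT 1 was left out and with equal sums, also without MIR6087. KDM6A, an X-linked H3K27 demethylase and COMPASS subunit, was at 6.08, 6.84 and 5.87 FPKM in DMSO and 9.98, 12.8 and 12.9 FPKM in BCT. It rose by 0.91 ± 0.11 (log2, SE; limma, adjusted p = 7.3e-05), with no call without BCT 2 (0.848), without BCT 3 (0.845) or with a pseudocount of 1 (0.82). KDM6B, which acts on the same mark, was more abundant than KDM6A in every sample, at 19.6, 20.1 and 20.9 FPKM in DMSO and 29.8, 31.4 and 30.3 FPKM in BCT, and was not called (0.59).

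The paralogs KDM2A and KDM2B, H3K36 demethylases that bind unmethylated CpG DNA, lay on opposite sides of 0 at 0.70 and −0.58, neither of them called (KDM2B turned positive with equal sums). Their ratio, KDM2A to KDM2B, was 1.35, 1.47 and 1.44 in DMSO and 3.14, 3.79 and 3.49 in BCT. In the KDM4 group, which acts on H3K9 and H3K36, KDM4A was at 0.30, KDM4B at −0.34 and KDM4C at 0.51 on the log2 scale, and none was called. KDM4D was under the minimum level, at 0.458 to 0.616 FPKM in DMSO and 1.21, 1.43 and 1.35 FPKM in BCT, and was not tested. It was called higher when the filter on low values was dropped, or when DMSO 1 or DMSO 3 was left out and its mean passed the filter. It passed only through the BCT samples, with a mean of 1.33 FPKM against 0.525 FPKM over all DMSO samples. KDM4E was listed at 0 in all 6 samples. KDM8 overlapped between the groups, at 1.08, 1.44 and 1.39 FPKM in DMSO and 1.20, 1.07 and 1.33 FPKM in BCT, with a log2 fold change of −0.11 and an interval of −0.49 to 0.27 (limma, adjusted p = 0.55).

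KDM1B, which removes H3K4 methylation in gene bodies, was at 10.5, 10.0 and 9.87 FPKM in DMSO and 5.29, 4.45 and 4.46 FPKM in BCT. It fell by 1.09 on the log2 scale (SE 0.080; limma, adjusted p = 4.7e-06), and was not called with equal sums (−0.33) or with equal sums without MIR6087 (−0.71). KDM1A, also known as LSD1 and the catalytic partner of CoREST, was at 34.1, 34.6 and 33.4 FPKM in DMSO and 27.2, 29.1 and 27.7 FPKM in BCT (−0.28, not called) and was the highest demethylase in FPKM in DMSO samples, though not in BCT samples, where KDM5C and KDM6B had higher means. The ratio of KDM1A to KDM1B went from 3.36 ± 0.114 to 5.96 ± 0.722 (SD, n = 3).

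In the methyltransferases the calls fell in the KMT2 family of H3K4 enzymes. KMT2A, the MLL gene of leukaemia translocations, was at 4.05, 5.53 and 4.81 FPKM in DMSO and 11.0, 13.3 and 13.3 FPKM in BCT, and rose by 1.37 ± 0.12 (log2, SE; limma, adjusted p = 1.2e-05). KMT2C, an enhancer enzyme, was at 6.10, 6.85 and 6.27 FPKM in DMSO and 12.7, 15.1 and 15.9 FPKM in BCT, and rose by 1.16 ± 0.092 (log2, SE; limma, adjusted p = 6.4e-06). KMT2D, its paralog, was at 5.86, 7.18 and 6.75 FPKM in DMSO and 13.4, 14.4 and 15.9 FPKM in BCT, and rose by 1.13 ± 0.093 (log2, SE; limma, adjusted p = 7.9e-06). In all 3 genes the lowest BCT sample lay above the highest DMSO sample. KMT2B, the closest paralog of KMT2A, was at 6.93, 8.83 and 8.05 FPKM in DMSO and 10.2, 10.7 and 11.2 FPKM in BCT (0.43, not called), and KMT2E, which has little or no catalytic activity, was at 18.7, 19.7 and 18.5 FPKM in DMSO and 24.6, 28.03 and 28.2 FPKM in BCT (0.50, not called).

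SETD1A and SETD1B, the other H3K4 enzymes of COMPASS, were not called. SETD1A was at 7.83, 8.54 and 8.72 FPKM in DMSO and 6.87, 7.58 and 7.37 FPKM in BCT (−0.20). SETD1B overlapped between the groups, at 11.2, 13.0 and 12.7 FPKM in DMSO and 12.1, 11.3 and 12.7 FPKM in BCT, and had an interval of −0.20 to 0.14 around −0.03 (limma, adjusted p = 0.71). The ratio of KMT2A to SETD1A was 0.518, 0.648 and 0.552 in DMSO and 1.595, 1.75 and 1.80 in BCT, and that of KMT2D to SETD1B went from 0.534 ± 0.0147 to 1.21 ± 0.0887. The 7 genes summed to 65.4 ± 4.51 FPKM in DMSO and 98.6 ± 7.04 FPKM in BCT, with KMT2A at 7.31% ± 0.626 and 12.7% ± 0.574 of the sum.

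None of the other methyltransferases was called. Among the H3K9 enzymes, EHMT2 (G9a) was at 31.8, 32.7 and 32.6 FPKM in DMSO and 21.1, 18.6 and 18.1 FPKM in BCT (−0.75), and its partner EHMT1 was at −0.15. EHMT2 is placed on an alternative haplotype of chromosome 6 in the authors' files, and whether reads of the primary copy are missing from its value was not tested. SETDB1, the KAP1-bound H3K9 enzyme, was at 0.36, and its ratio to EHMT2 went from 0.574 ± 0.0184 to 1.25 ± 0.183. SETD2, the H3K36 trimethylase, was at 8.85, 11.4 and 11.0 FPKM in DMSO and 15.4, 17.3 and 18.4 FPKM in BCT (0.71). SETD8, the H4K20 enzyme now named KMT5A and the most abundant methyltransferase of this set in DMSO, was at 45.8, 46.4 and 46.2 FPKM in DMSO and 40.8, 43.3 and 41.9 FPKM in BCT (−0.13). SETD7 overlapped between the groups, with an interval of −0.11 to 0.13 around 0.01 (limma, adjusted p = 0.86), and SETD3, SETD4, SETD5, SETD6, SETD9 and SETDB2 ranged from −0.38 to 0.65.

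Both antisense transcripts fell, while the genes they are named after were not called (KDM4A at 0.30 and KMT2E at 0.50). KDM4A-AS1 was at 2.48, 2.60 and 2.27 FPKM in DMSO and 1.11, 0.949 and 0.767 FPKM in BCT, and fell by 1.299 on the log2 scale (SE 0.15; limma, adjusted p = 6.7e-05). KMT2E-AS1 was at 2.73, 2.31 and 2.40 FPKM in DMSO and 1.31, 1.31 and 1.29 FPKM in BCT, and fell by 0.87 on the log2 scale (SE 0.11; limma, adjusted p = 1.1e-04). The ratio of KDM4A to KDM4A-AS1 went from 5.79 ± 0.304 to 19.0 ± 3.86, and that of KMT2E to KMT2E-AS1 from 7.69 ± 0.848 to 20.7 ± 1.64 (SD, n = 3). KMT2E-AS1 was near the threshold and lost its call under 7 alternatives, and KDM4A-AS1 lost its call with a pseudocount of 1 and with equal sums. KDM4A-AS1 reached the minimum mean of 1 FPKM only through the DMSO samples (mean 2.45 FPKM, against 0.943 FPKM in BCT). The library kit does not mark strand, so reads from bases that both genes share cannot be told apart. In GENCODE transcripts, 17.1% of the exonic bases of KDM4A-AS1 and 21.5% of those of KMT2E-AS1 lie in exons of the sense gene. The authors' files used an annotation that is not given. There KDM4A-AS1 has the same span as KDM4A, but KMT2E-AS1 (hg19 chr7:104650989-104654588) ends before KMT2E starts (104654637). Whether its value holds reads of KMT2E was not tested. EHMT1-IT1 was at 0 to 0.036 FPKM.

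Long transcripts were common among these enzymes. The median length of the reference transcript (MANE Select for each of these enzymes, otherwise the Ensembl canonical or a basic transcript) was 5095 nucleotides for the tested enzyme genes and 3174.5 for all tested genes, and 27 of the 53 lay in the longest quartile (over 5027 nucleotides). That quartile held 9 of the 12 genes that rose and 0 of the 3 that fell. Over all genes the median log2 fold change was −0.17, −0.08, −0.03 and 0.14 from the shortest to the longest quartile, and 17.1% of the longest quartile was called higher. The enzyme medians were 0.38 over 6 genes, −0.21 over 10, −0.07 over 10 and 0.59 over 27 in the same order, which is not a steady rise, and 2 of the 6 in the shortest quartile were called higher. Across the 53 enzyme genes the change correlated with log2 length at r = 0.39 (Spearman rho = 0.44), and across 12430 genes at r = 0.10 (rho = 0.12). With the GC content of the transcript the change correlated at r = −0.30 (rho = −0.25) across the enzyme genes. Across the 12430 genes that correlation was r = −0.16 (rho = −0.18). These are correlations across genes that share the same 6 libraries and are not independent. After a correction for GC content and length, chosen after seeing the data, KMT2C (0.83) and KDM6A (0.78) were no longer called, whereas KDM5C and KDM6B were, and the counts stayed at 12 higher and 3 lower. That correction acts on GC content and length together, and the part of either in these values was not tested otherwise.

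Some libraries stood slightly apart. DMSO 1 had the lowest FPKM of the DMSO samples in 26 of the 53 enzyme genes (49.1%) and in 6 of the 7 KMT2 and SETD1 genes, against 28.6% of all tested genes, and it was the DMSO sample with the largest share of MIR6087. BCT 1 was the BCT sample nearest to DMSO in 15 of the 15 called enzyme genes, against 87.8% of all called genes. The enzyme counts were 10 to 13 higher and 3 lower when any 1 sample was left out. Among 9 prostate epithelial genes, levels were 0.863 to 1147.6 FPKM, with KRT8 and KRT18 present in every sample. Among 9 markers of blood, vessel and stromal cells the sum was 3.58 to 4.90 FPKM in DMSO and 11.4 to 14.8 FPKM in BCT, from CD68 and COL1A1, and the other 7, among them PTPRC and PECAM1, were at or below 0.134 FPKM in every sample.

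The partners and relatives of these enzymes, in 6 lists written from general knowledge with earlier results of these data known, moved in both directions. Over all genes tested 13.9% were called higher and 17.8% lower, the background for the counts of each list. Of 35 tested subunits of HDAC corepressor complexes 7 rose and 4 fell (median 0.36). GPS2, a subunit of NCoR/SMRT, went from 35.8 ± 0.394 to 118.9 ± 12.7 FPKM and rose by 1.72 ± 0.076 (log2, SE), and ARID4A of SIN3 rose by 1.24. In the same list RBBP4, a histone-binding subunit of SIN3 and NuRD, went from 39.9 ± 0.318 to 14.6 ± 1.49 FPKM and fell by 1.45 on the log2 scale, and HMG20B, a CoREST subunit, fell by 1.48. Of 13 COMPASS subunits other than the enzymes 1 rose (BOD1L1, 0.99) and 2 fell (median −0.25). The fallers were PSIP1 (−1.42) and MEN1 (−1.09), which hold KMT2A on chromatin, and MEN1 went from 45.8 ± 0.916 to 21.6 ± 2.86 FPKM.

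Of 17 other lysine methyltransferases 2 rose (ASH1L, 1.06, and NSD1, 0.98, both of which act on H3K36) and 3 fell, SMYD2 (−1.22) and SETMAR (−0.97) the furthest. Of 13 other JmjC proteins 4 rose and 0 fell. JMJD1C, a relative of KDM3A and KDM3B, was at 5.89, 6.61 and 6.10 FPKM in DMSO and 23.3, 31.3 and 30.4 FPKM in BCT (2.17 ± 0.11, log2, SE), and UTY, the Y-linked relative of KDM6A, went from 2.74 ± 0.134 to 8.66 ± 1.65 FPKM (1.61). Of 16 acetyltransferases, which oppose the HDACs, 3 rose and 1 fell (median 0.41). CREBBP was at 6.72, 7.83 and 7.53 FPKM in DMSO and 20.9, 23.8 and 24.8 FPKM in BCT (1.64 ± 0.084), and its paralog EP300 rose by 1.597 ± 0.12. KAT2A, the catalytic subunit of SAGA, fell by 1.07 on the log2 scale (43.1 ± 0.703 to 20.6 ± 3.01 FPKM). Of 16 subunits of BRPF, ING and MYST complexes 4 rose and 0 fell (median 0.55), led by ING3 (1.23) and JADE1 (1.20). All named genes of these lists had adjusted p-values in limma of 5.4e-05 or less. Over the 6 lists 21 of 110 genes rose and 10 fell, and the share called in either direction (28.2%) was close to the 31.6% of all genes. By direction, 19.1% were called higher and 9.09% lower, against 13.9% and 17.8% of all genes. The counts of higher and lower genes were 62 and 0 with equal sums and 41 and 4 with equal sums without MIR6087. Differences in these shares were not tested.

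**Figure D4:**
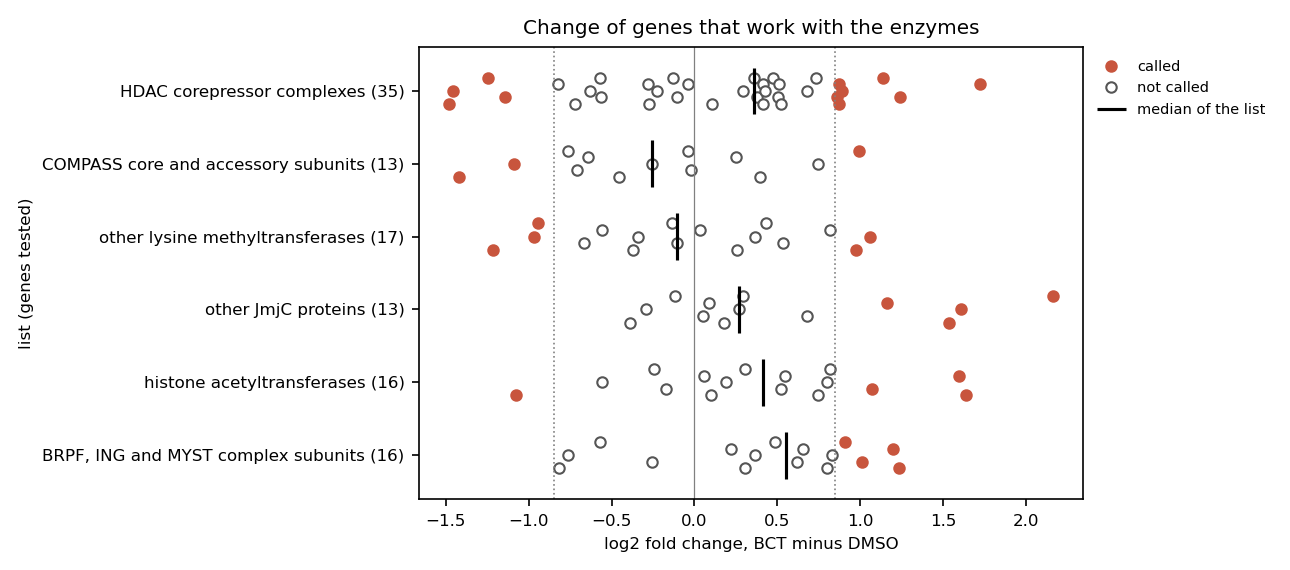
Log2 fold change (BCT minus DMSO) of the tested genes in 6 lists of partners and relatives, 1 row per list with the number tested, filled points for called genes, a black bar for the list's median and dotted lines at the fold threshold of 0.85. The medians range from −0.25 in COMPASS subunits to 0.55 in BRPF, ING and MYST subunits, and called genes lie on both sides in 4 of the 6 lists.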

How the data were processed

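Total RNA of 3 DMSO and 3 BCT samples was sequenced as 100-base paired reads from TruSeq v2 libraries, which do not mark strand. Per the labels and the study's methods, the authors trimmed reads with Trimmomatic (version 0.38 in the submitters' processing notes), aligned them to hg19 with HISAT2 and deposited FPKM values per gene made with StringTie; the notes also name CASAVA and HTSeq, and the annotation is not given in the sources used here. FPKM is relative to each library's reads, so 1 abundant RNA moves all values, and as FPKM holds no counts, no counting intervals are given. Values were tested as log2(FPKM + 0.1) with limma 3.58.1 (R 4.3.3; eBayes, trend on, no block) over the 12729 genes whose mean reached 1 FPKM, with Benjamini-Hochberg adjustment; fold changes on this scale understate low genes. The thresholds follow the study's results text, whose methods give an FDR of 0.01. The fit was tested on simulated data. Lengths, GC content and shared 100-base stretches came from GENCODE transcripts lifted to GRCh37. Members, classes and lists were chosen with earlier results of these data known. Per-sample values were given for called members, the most abundant member of each class and uncalled members of a family with a call, except Y-linked KDM5D (group means); from each list of related genes at most 2 called genes per direction were named. Start positions were raised by 1 to count from 1.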

Additional observations from a re-analysis of the deposited data

How the results depend on the processing

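Each choice was changed in turn over 20 alternatives. Of 335 values for the 15 called enzyme genes and both antisense transcripts, 311 kept their call, 24 lost it and 0 reversed. KDM3B, KDM5B, KDM5D, KDM7A, KMT2A, KMT2D and SIRT1 were called under all 20. With equal FPKM sums 6282 genes were called (5614 higher, 668 lower), 29 of them enzyme genes (29 higher, 0 lower), with an enzyme median of 1.07, and related genes gave 62 higher and 0 lower. With equal sums without MIR6087 the counts were 3370 higher and 1208 lower, 23 enzyme genes (22 and 1, median 0.69) and 41 and 4 related genes. With no fold threshold 10450 genes passed (4997 higher, 5453 lower), 47 of them enzyme genes (28 and 19), with 59 and 36 related genes. All genes called higher numbered 2657 with no filter and 1150 with a mean of at least 5 FPKM, as more or fewer genes were then tested. The GC and length correction, added after seeing the data, gave an enzyme median of 0.38. Pseudocounts of 1 and 0.01, an FDR of 0.01, the median log ratio set to 0, quantile normalization and other variance moderation left the count of enzyme calls within 1.5 times. Leaving out 1 sample at a time gave 3822 to 4428 called genes (1648 to 1912 higher, 2169 to 2516 lower), 13 to 16 enzyme genes (10 to 13 higher, 3 to 3 lower; median 0.25 to 0.34) and 18 to 26 higher and 10 to 11 lower related genes. Samples with the same replicate number correlated at 0.12, 0.033 and 0.034 in their deviations from the group means. Samples of the 2 groups with different numbers correlated at −0.12 to 0.074. With 3 samples per group these weak values cannot tell whether the number pairs samples. A fit with a replicate block called 4033 genes (1767 higher, 2266 lower), 15 of them enzyme genes (12 and 3), and no enzyme call changed. Except where stated, the cause was not tested. FPKM gives no depth, so the precision of low genes such as HDAC11, HDAC4 and SIRT4 is known only from the spread of 3 samples.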
